A study of Mus musculus with 6 samples.

Results

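The differences between duplicate cultures of 1 line are described here, for RM1 and for RM1536, 2 lines of mouse prostate cancer cells. RM1 is a prostate cancer line of C57BL/6 origin that carries no label, grown in culture and sequenced as RM1 a and RM1 b. RM1536 is RM1 that carries eCFP (a fluorescent protein) and luc2 (a luciferase), a pool of clones 5, 3 and 6, sequenced as RM1536 a and RM1536 b. These 4 samples were chosen by their labels from the 6 of the series; the other 2 are RM1536 cells recovered from the femur and the lung of 1 mouse on day 16 after injection into the heart, and they enter only where stated. Cells of every sample were sorted by FACS and then grown in DMEM (serum at 5%) to 85% confluency of a T75 flask. The labels give the letters a and b and do not say whether they are separate flasks, days or passages, so "duplicate" means only 2 samples of 1 line, and the spread between them may be technical.

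Cultured cells of 1 line can differ in state. When amino acids run short or the endoplasmic reticulum is stressed, kinases of the integrated stress response slow translation and raise the transcription factor ATF4, which turns on genes for amino acid synthesis and import and, with CHOP (Ddit3), feedback and death genes. Interferon acts through transcription factors that include STAT2 and IRF9 on a large set of antiviral genes. Low sterol releases SREBP factors that turn on cholesterol and fatty acid synthesis, and E2F factors turn on DNA replication genes as cells enter S phase.

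Depth ran from 24291590 to 30303566 counts a sample. Of 23791 genes, 9885 had a mean of at least 5 CPM (counts per 1000000, TMM-scaled) over the 4 samples and are called measured below; 2783 had no read in any of the 4. Each pair has 1 sample a side, so no p-value is given for a pair, and a difference is log2 of (b + 0.5 CPM) over (a + 0.5 CPM). Over all measured genes, counting error was small beside the spread: chi-square per degree of freedom between duplicates was 122 in RM1 and 124 in RM1536. Every gene past 2-fold in either pair had a 95% counting interval of the ratio that excluded 1. Picking these genes by the same counts makes that likely beforehand. The whole interval lay past 2-fold for 325 genes in RM1, of 446 past 2-fold, and for 375 of 499 in RM1536. The epithelial keratins Krt8 (1424 and 977 CPM in RM1 a and b, 2162 and 1372 in RM1536 a and b) and Krt18 (377, 396, 467 and 280 CPM) were present, whereas the prostate factors Hoxb13 and Foxa1 and the basal keratins Krt5 and Krt14 had 0 reads in all 4 samples. Leukocyte genes Lyz2, Itgam, Adgre1 and Tyrobp were also at 0 and Ptprc had at most 2 reads in a sample; of the 14 leukocyte markers only Cd14 and Cd68 were measured. Cd14 was level within each pair (23.5, 23.3, 18.6 and 19.5 CPM), and Cd68, a lysosomal membrane protein, stood at 9.70, 44.0, 11.4 and 3.66 CPM, so it was higher in RM1 b and lower in RM1536 b. None of the erythroid or endothelial markers reached a mean of 5 CPM.

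Gene lists known as targets of ATF4, interferon, E2F and SREBP are described in what follows, so stretches of promoters with the letters of these sites are shown first. RefSeq promoters (GRCm38.p6, 250 bases before to 50 after the start) were searched on both strands for TGATGNAA (ATF4 composite site), GAAANNGAA (interferon-stimulated response element), TTTGGCGC or TTTCGCGC (E2F) and TCACNCCAC (sterol regulatory element). Matches of the 2 E2F forms, and neighbouring matches of the interferon element, can overlap. The sequences below run 5′ to 3′ on the gene's strand, end before the start site, and have the matched letters in capitals (some matches lie on the opposite strand and read as the reverse complement). The 4 ATF4-list genes come first, then interferon-stimulated genes, replication genes and the HMG-CoA synthase gene.
Chac1: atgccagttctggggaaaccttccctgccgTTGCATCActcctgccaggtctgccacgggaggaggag
Asns: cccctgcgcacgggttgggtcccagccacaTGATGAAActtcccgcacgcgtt
Slc7a11: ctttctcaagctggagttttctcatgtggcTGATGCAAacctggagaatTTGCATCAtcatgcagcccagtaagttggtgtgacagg
Fgf21: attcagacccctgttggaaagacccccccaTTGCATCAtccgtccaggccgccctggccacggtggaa
Isg15: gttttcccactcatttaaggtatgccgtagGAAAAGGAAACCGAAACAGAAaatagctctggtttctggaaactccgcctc
Ifit3: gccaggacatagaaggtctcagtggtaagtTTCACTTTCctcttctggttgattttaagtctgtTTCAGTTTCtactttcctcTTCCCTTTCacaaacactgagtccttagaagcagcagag
Oas3: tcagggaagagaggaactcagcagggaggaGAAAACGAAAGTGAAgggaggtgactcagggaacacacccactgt
Rsad2: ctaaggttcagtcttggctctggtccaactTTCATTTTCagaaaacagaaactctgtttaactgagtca
Mcm5: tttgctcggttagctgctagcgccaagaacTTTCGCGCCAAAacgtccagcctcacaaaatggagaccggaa
Mcm6: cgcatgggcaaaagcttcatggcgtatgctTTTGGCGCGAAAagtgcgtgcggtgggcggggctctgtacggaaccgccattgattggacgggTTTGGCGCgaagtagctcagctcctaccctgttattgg
Uhrf1: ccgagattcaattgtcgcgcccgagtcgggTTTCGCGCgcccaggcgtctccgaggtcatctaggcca
Hmgcs1: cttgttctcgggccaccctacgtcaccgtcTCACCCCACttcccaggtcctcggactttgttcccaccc

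The stretches lie, in the same order, at Chac1 at chr2:119351019-119351086 (plus strand), Asns at chr6:7693210-7693262 (minus strand), Slc7a11 at chr3:50443623-50443709 (minus strand), Fgf21 at chr7:45615592-45615659 (minus strand), Isg15 at chr4:156200846-156200926 (minus strand), Ifit3 at chr19:34583344-34583465 (plus strand), Oas3 at chr5:120777690-120777764 (minus strand), Rsad2 at chr12:26456533-26456601 (minus strand), Mcm5 at chr8:75109326-75109397 (plus strand), Mcm6 at chr1:128359715-128359845 (minus strand), Uhrf1 at chr17:56304098-56304165 (plus strand) and Hmgcs1 at chr13:119690184-119690252 (plus strand). The ATF4 letters were in 9 of the 24 measured ATF4-list genes that matched a promoter (37.5%), against 4.51% of all 27025 symbols with a promoter and 2.52% of the 7672 measured genes with one. The interferon letters were in 18 of 34 interferon-stimulated genes (52.9%), against 9.76% of all and 8.49% of those measured. The E2F letters were in 9 of 24 replication genes (37.5%), against 0.929% of all and 2.11% of those measured. The sterol letters were in 1 of 16 cholesterol genes (Hmgcs1), against 1.44% of all and 1.34% of those measured. A match describes letters in a window and not a bound site.

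Between the RM1 duplicates 288 genes were at least 2-fold higher in b (2.91% of those measured) and 158 at least 2-fold lower (1.6%), 446 in all. Between the RM1536 duplicates 152 were higher in b (1.54%) and 347 lower (3.51%), 499 in all. Of these, 145 genes were past 2-fold in both pairs, which is 32.5% of the RM1 genes and 29.1% of the RM1536 genes. In 141 of them the direction was opposite (1.43% of the genes measured): 110 were higher in RM1 b and lower in RM1536 b, and 31 were lower in RM1 b and higher in RM1536 b. Only 4 genes moved past 2-fold the same way (0.0405%). Across the 9885 genes the 2 differences had a Pearson r of -0.516 and a Spearman rho of -0.492, given as a description because genes are not independent replicates, and 66.4% of genes had opposite signs. The pairs share no sample, so RM1 b and RM1536 a stood on 1 side and RM1 a and RM1536 b on the other, against their letters. The labels do not say whether a letter ties samples across the lines, and nothing in them settles whether the letters of 1 line were exchanged. With 1 line's letters exchanged, the 141 genes would count as moving the same way and the 4 as opposite, and the test of the letter given further on would ask another question.

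**Figure D1:**
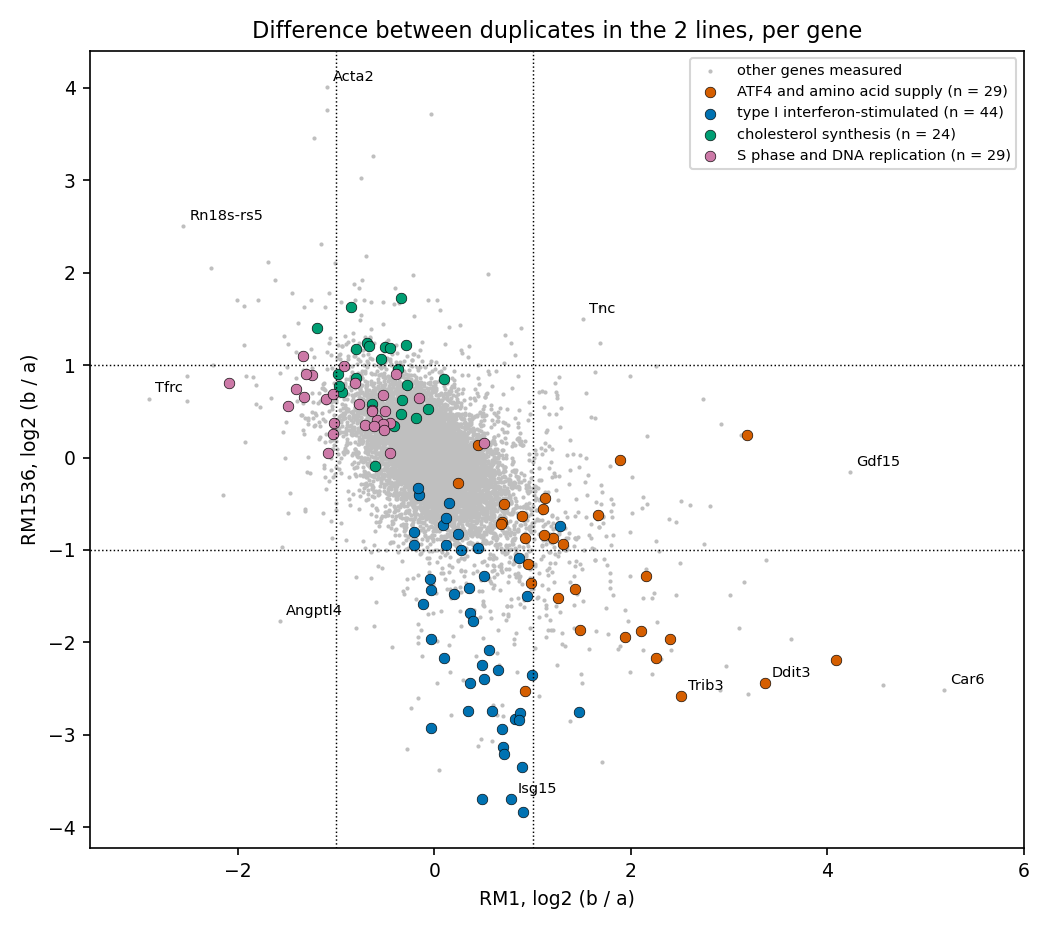
Each point is 1 of 9885 measured genes, with the log2 difference (b over a) between the RM1 duplicates on the horizontal axis and between the RM1536 duplicates on the vertical axis; dotted lines mark 2-fold, and 4 gene lists are coloured. The cloud runs from upper left to lower right, with the ATF4 list at lower right, the cholesterol and S phase lists at upper left, and the interferon-stimulated genes low on the vertical axis and near 0 to 1 on the horizontal.

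Targets of ATF4 stood high in RM1 b and in RM1536 a. Of the 29 measured genes of ATF4 and amino acid supply, 19 were at least 2-fold higher in RM1 b and 0 lower, and 14 were at least 2-fold lower in RM1536 b and 0 higher. The median log2 difference was 1.26 in RM1 and -0.94 in RM1536, beside -0.03 and 0 over all genes measured, and 27 of the 29 had opposite signs in the pairs. Among the 39 lists it had the largest number of members past 2-fold in RM1.

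Atf4 itself (chr15:80255184-80257541, plus strand), whose product drives the response, stood at 371 and 922 CPM in RM1 a and b and at 974 and 507 in RM1536 a and b. The 2 high samples were close to each other and the 2 low ones were apart by less than the difference within either pair. Ddit3, the gene for the stress factor CHOP, stood at 16.3 and 173 CPM in RM1 a and b and at 129 and 23.3 in RM1536 a and b, a 10.6-fold difference upward in RM1 b (95% counting interval 9.67 to 11.7) and a 5.53-fold difference downward in RM1536 b. Trib3 (chr2:152337422-152344032, minus strand), a pseudokinase that feeds back on ATF4, stood at 50.2, 289, 206 and 34.04 CPM in the same order. For both genes the 2 low values, 1 from each line, lay far below the 2 high values, 1 from each line. Atf3, a stress-induced repressor on the list of immediate early genes and not on the ATF4 list, stood at 10.8, 103, 26.3 and 4.05 CPM. Chac1, which breaks down glutathione, stood at 48.4, 187, 167 and 43.3 CPM. Nupr1, a stress-response chromatin protein, stood at 144, 346, 145 and 50.1 CPM, so for it RM1 a and RM1536 a were level.

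Enzymes and carriers for amino acids moved with these regulators. Asns (asparagine synthetase) stood at 187 and 507 CPM in RM1 a and b and at 309 and 115 in RM1536 a and b. Cth, the last enzyme of cysteine synthesis by transsulfuration, stood at 31.3, 151, 43.0 and 9.15 CPM. Psph, the last enzyme of serine synthesis, stood at 35.5, 99.9, 84.2 and 22.7 CPM. In all 3 the high member of each pair was the one with high Atf4. The cystine carrier Slc7a11 (chr3:49892526-50443614, minus strand) stood at 29.6, 128, 169 and 45.8 CPM, and the mitochondrial folate enzyme Aldh1l2 at 74.1, 393, 170 and 43.4. The glycine carrier Slc6a9 stood at 19.2, 87.2, 78.7 and 32.1 CPM. Differences were smaller for Phgdh, the entry enzyme of serine synthesis (log2 0.71 in RM1 and -0.51 in RM1536), Psat1 (0.24 and -0.27) and the tRNA synthetases Aars (0.89 and -0.64) and Gars (0.92 and -0.87).

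The 2 members without opposite signs were both amino acid carriers. Slc7a3, a cationic amino acid carrier, stood at 1.56 and 18.1 CPM in RM1 a and b and at 1.07 and 1.35 in RM1536 a and b. Slc38a2, a neutral amino acid carrier, stood at 410, 557, 548 and 604 CPM. Stc2, a secreted glycoprotein, kept opposite signs but moved in RM1 only (7.17 and 28.0 CPM against 62.1 and 61.1). The secreted factor Fgf21, a known ATF4 target, stood at 0.406 and 14.9 CPM in the RM1 pair and at 5.82 and 0.889 in the RM1536 pair.

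**Figure D2:**
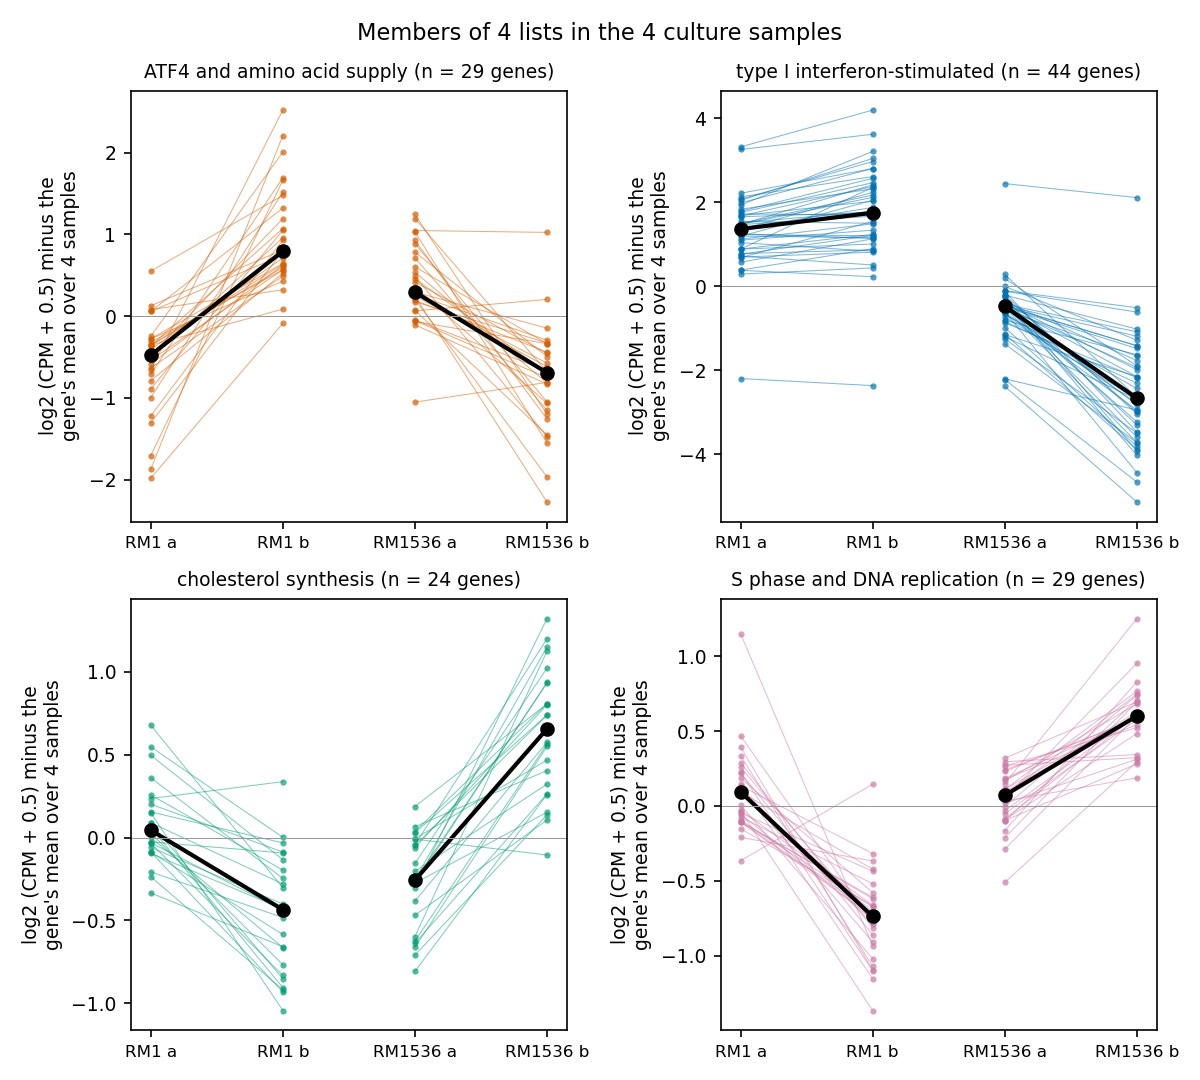
Each thin line is 1 gene of a list and joins its level in the 2 samples of a line, as log2 (CPM + 0.5) minus the gene's mean over the 4 samples; the black line joins the medians. The ATF4 panel is higher in RM1 b than a and lower in RM1536 b than a, the cholesterol and S phase panels show the reverse, and the interferon panel is high in both RM1 samples and lowest in RM1536 b.

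Outside the list, the largest difference upward in RM1 b was that of Car6 (chr4:150187015-150201332, minus strand), a secreted carbonic anhydrase, at 0.203 and 25.1 CPM in RM1 a and b (6 and 701 reads) and at 5.57 and 0.560 in RM1536 a and b. It was high in the same 2 samples as the ATF4 list. So were Soat2, which esterifies cholesterol (0.676, 27.5, 4.26 and 0.362 CPM), Acot2, a mitochondrial acyl-CoA thioesterase (5.31, 43.1, 50.2 and 8.36 CPM), and Stbd1, a glycogen-binding protein (5.48, 46.2, 43.2 and 8.63 CPM). Gadd45a, a growth-arrest and DNA-damage gene, stood at 25.5, 120, 148 and 28.9 CPM. Ndrg1, a stress and hypoxia gene, stood at 53.8, 200, 123 and 29.6 CPM, and Pmaip1, which codes for the death protein NOXA, at 27.9, 94.6, 125 and 39.9. In each of these 7 genes both samples with high Atf4 lay above the other member of their pair by more than 2-fold.

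Chaperones of the endoplasmic reticulum moved less than ATF4 targets. Of 22 measured genes of the unfolded protein response, 0 were 2-fold higher and 1 lower in RM1 b, with a median log2 of -0.10, and 0 were higher and 1 lower in RM1536 b, with a median of -0.32. Hspa5, which codes for the chaperone BiP, stood at 928 and 1429 CPM in RM1 a and b and at 1780 and 1212 in RM1536 a and b, and Herpud1, of the degradation machinery, at 83.4, 142, 128 and 66.1. Hspa5 and Herpud1 followed the ATF4 order at under 2-fold. Most of the list did not: 14 of the 22 were lower in RM1 b and all 22 in RM1536 b, so 14 had the same sign in both pairs. Among these was Pdia6, a disulfide isomerase (951 and 726, 970 and 779 CPM). Lysosomal genes followed the ATF4 order: 23 of 24 were higher in RM1 b and all 24 lower in RM1536 b, with medians of 0.28 and -0.62. The autophagy receptor Sqstm1 stood at 1084, 2946, 1589 and 730 CPM and the lysosomal cholesterol transporter Npc1 at 65.3, 185, 209 and 90.3. The heme oxygenase Hmox1 stood at 17.5, 71.4, 62.3 and 25.3 CPM, but the 22 genes of the NRF2 list had medians of -0.11 and 0.01.

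Genes of DNA replication and mitosis moved against the ATF4 list. Of 29 measured S phase genes, 12 were at least 2-fold lower in RM1 b and 0 higher, and 1 was at least 2-fold higher in RM1536 b and 0 lower. Their medians were -0.77 in RM1 and 0.56 in RM1536, with opposite signs in 28 of 29. All 30 mitosis genes were lower in RM1 b (2 past 2-fold, median -0.71) and higher in RM1536 b (1 past 2-fold, median 0.44). RM1 b, the sample with the highest ATF4 list, had the lowest level of both lists among the 4.

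Ccne2, a cyclin of the entry into S phase, stood at 30.4 and 6.77 CPM in RM1 a and b and at 9.26 and 16.6 in RM1536 a and b. Rrm1 (chr7:102441695-102469771, plus strand), the large subunit of ribonucleotide reductase, stood at 187, 66.1, 149 and 220 CPM, and its partner Rrm2 at 207, 82.2, 191 and 301. The helicase subunit Mcm5 stood at 133, 53.7, 125 and 233 CPM. In these 4 genes RM1 b was the lowest sample. Cdc6 (chr11:98907801-98923940, plus strand), which loads that helicase, stood at 34.5, 13.4, 39.2 and 84.9 CPM and was the member past 2-fold in RM1536. Cdt1, its partner in loading, was the exception in RM1, at 78.8 and 112 CPM, and stood at 104 and 116 in RM1536. Of mitosis genes, Mki67, the proliferation antigen Ki-67, stood at 236, 113, 141 and 348 CPM and Ccna2 (cyclin A2) at 113, 49.7, 88.2 and 143. The cell cycle inhibitors did not mirror this by a large amount: Cdkn1a (p21) stood at 257, 337, 277 and 225 CPM and Cdkn1b (p27) at 72.9, 95.3, 105 and 82.2. Of 21 measured genes of growth arrest and quiescence, 13 were higher in RM1 b (4 past 2-fold, median 0.32). In RM1536 b 13 were lower (3 past 2-fold, median -0.30), and 19 had opposite signs in the pairs. The other direction also had members past 2-fold, 2 lower in RM1 b and 1 higher in RM1536 b. Gas1, a growth-arrest protein of the cell surface, was an exception in the list and went with the replication genes (114, 29.4, 57.1 and 178 CPM).

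Cholesterol and fatty acid synthesis also moved against the ATF4 list, and more in RM1536 than in RM1 by count. Of 24 cholesterol genes, 1 was at least 2-fold lower in RM1 b and 10 were at least 2-fold higher in RM1536 b, with medians of -0.52 and 0.88 and opposite signs in 22. Of 15 fatty acid genes, 0 passed 2-fold in RM1 and 6 were higher in RM1536 b, with medians of -0.42 and 0.80. Whether the sizes differ between the lines was not tested. Mvd (chr8:122433601-122443422, minus strand), of the mevalonate pathway, stood at 58.1 and 32.1 CPM in RM1 a and b and at 49.9 and 155 in RM1536 a and b. Hsd17b7, a later enzyme of the pathway, stood at 43.4, 18.7, 32.7 and 87.4 CPM and Hmgcs1, whose promoter is shown above, at 439, 222, 176 and 329. RM1536 b was the highest sample for Mvd and Hsd17b7, and RM1 a for Hmgcs1. The SREBP regulator Insig1 did not follow in RM1536 (255, 167, 197 and 185 CPM). Acly, which makes cytosolic acetyl-CoA, stood at 554, 302, 368 and 878 CPM and Fasn (fatty acid synthase) at 668, 476, 790 and 1541.

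**Figure D3:**
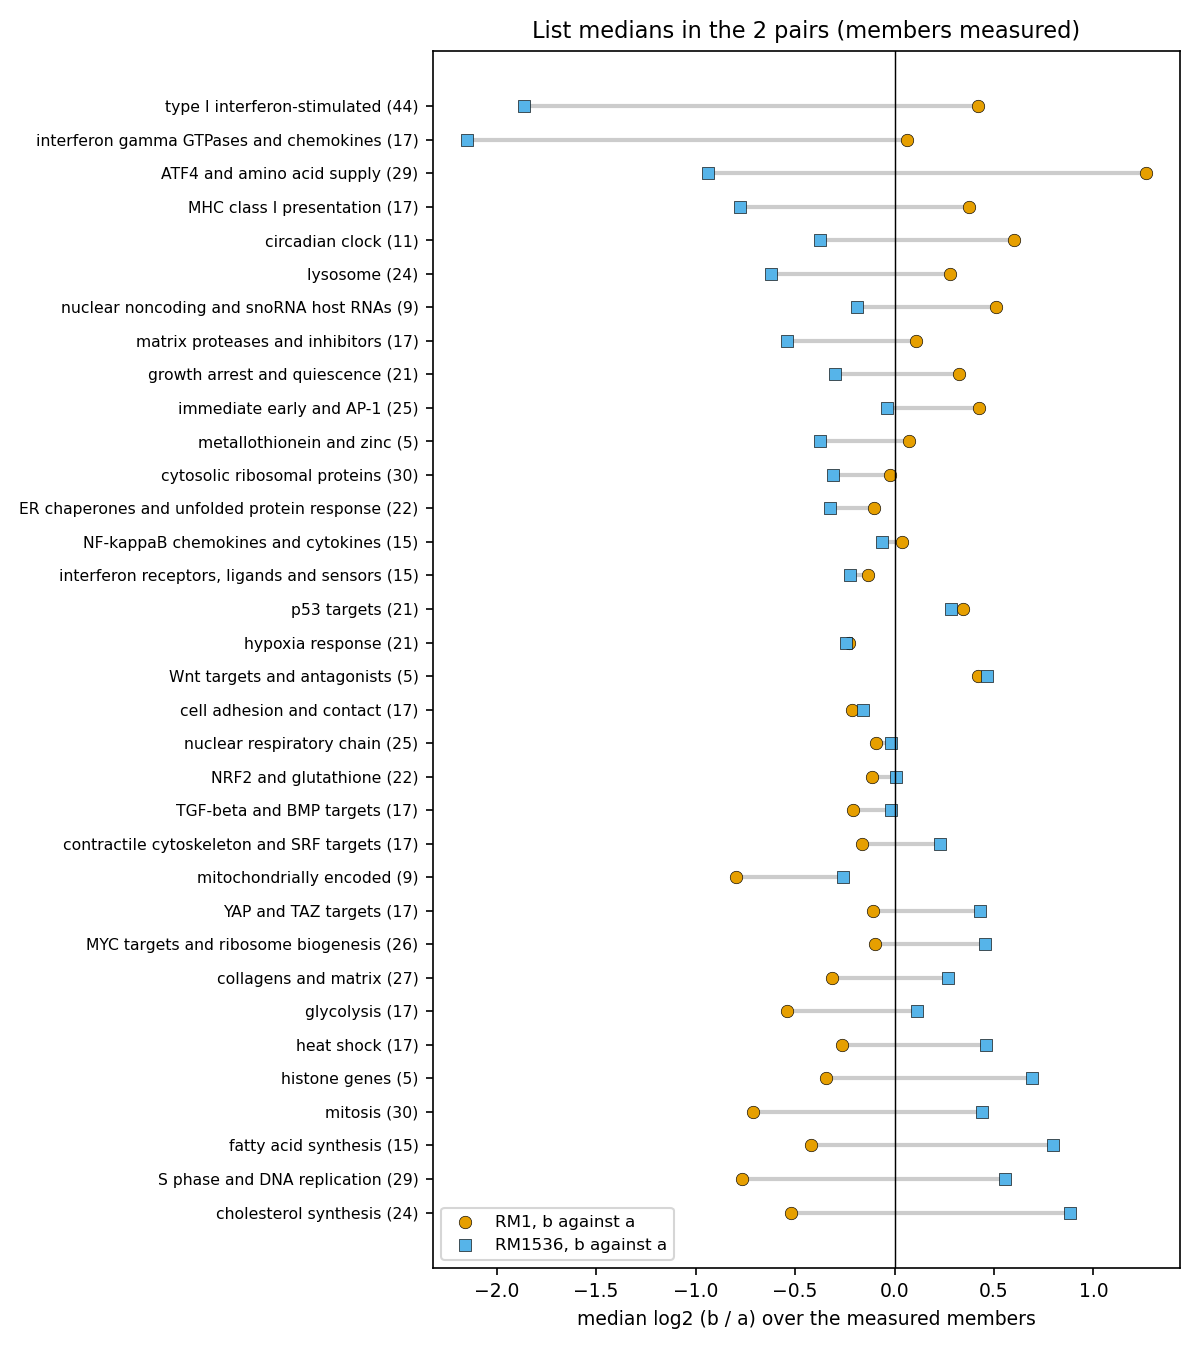
The median log2 difference (b over a) of each gene list with at least 5 measured members is shown for RM1 (circles) and RM1536 (squares), ordered by the gap between them, with the number of members in brackets. Interferon-stimulated genes (0.42 and -1.86), interferon gamma genes (0.06 and -2.15) and ATF4 genes (1.26 and -0.94) are farthest apart in 1 direction, and cholesterol genes (-0.52 and 0.88) and S phase genes (-0.77 and 0.56) in the other.

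Some properties of the samples also differed between duplicates, not all of them in the pattern of these lists, and their part in the results was not tested. Reads on the ribosomal RNA entry Rn18s-rs5 stood at 1046 and 178 CPM in RM1 a and b and at 188 and 1066 in RM1536 a and b, so RM1 a and RM1536 b, the samples low in ATF4 genes, were the high ones. By transcript length, the 1920 genes of at least 5489 bases had a median difference of -0.10 in RM1 and 0.18 in RM1536, and the 1921 genes of at most 2092 bases -0.05 and -0.14. With the differences corrected for length and GC content, 133 genes were past 2-fold in opposite directions and 418 and 449 in RM1 and RM1536, and r was -0.529. Cytosolic ribosomal protein genes, which are short, were lower in RM1536 b in 30 of 30, with a median of -0.31 and of -0.14 after this correction, and had a median of -0.03 in RM1.

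Interferon-stimulated genes varied more between the RM1536 duplicates than between the RM1 duplicates. Of 44 measured genes, 33 were at least 2-fold lower in RM1536 b and all 44 were lower by some amount, with a median log2 of -1.86. In RM1, 2 were at least 2-fold higher in b and 0 lower, with a median of 0.42. By direction alone, 35 of the 44 were higher in RM1 b and 9 lower, and 35 had opposite signs in the pairs. Both RM1536 samples lay below both RM1 samples for the members given next. This order of 4 values does not itself show a difference between lines. The test of the lines, given further on, called 18 of 45 members, and Isg15 was not among them.

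Ifi44 (chr3:151730922-151749960, minus strand), an interferon-induced protein, stood at 133 and 248 CPM in RM1 a and b and at 20.2 and 0.955 in RM1536 a and b, which is 21.2-fold lower in RM1536 b than in RM1536 a. Isg15 (chr4:156199424-156200818, minus strand), the ubiquitin-like modifier, stood at 213, 367, 48.5 and 3.29 CPM. Usp18 (chr6:121245906-121270917, plus strand), which removes it and restrains the receptor, stood at 118, 166, 27.7 and 1.68 CPM. RM1536 b was the lowest sample in each by more than 10-fold. The antiviral enzyme Rsad2 (viperin) stood at 269, 495, 4.67 and 0.263 CPM, Oas3, which makes the activator of RNase L, at 224, 337, 21.4 and 2.77, and Ifit3, a partner of the RNA-binding protein IFIT1, at 181, 336, 65.1 and 5.93. The factors Irf9 and Stat2, which carry the signal, moved less far: Irf9 stood at 95.4, 122, 39.9 and 14.7 CPM and Stat2 at 168, 305, 69.8 and 32.6. Irf7, which amplifies interferon production, stood at 213, 376, 26.8 and 3.33 CPM.

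The smallest differences were in the membrane proteins Ifitm1 and Ifitm3 and in Epsti1. Ifitm1 stood at 20.4 and 18.1 CPM in the RM1 pair and at 523 and 415 in the RM1536 pair, the reverse of the other members between lines. Ifitm3 stood at 887, 982, 668 and 474 CPM. Zbp1, a sensor of nucleic acids, and Sp100, a nuclear body protein, were the 2 members past 2-fold in RM1 (log2 1.47 and 1.28).

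Genes known for interferon gamma followed in RM1536. Of 17 measured GTPases, chemokines and regulators, 13 were at least 2-fold lower in RM1536 b (median -2.15) and 2 were higher in RM1 b (median 0.06). The GTPase Gbp2 stood at 107 and 173 CPM in RM1 a and b and at 31.5 and 4.51 in RM1536 a and b, and the chemokine Cxcl10 at 81.9, 67.3, 20.6 and 1.88. Irf1, a factor that interferon gamma induces, stood at 46.9, 45.1, 51.3 and 36.9 CPM and so moved little. Of 17 MHC class I genes, all were lower in RM1536 b, 5 by at least 2-fold (median -0.78). Tap1, a subunit of the peptide transporter, stood at 108, 148, 28.2 and 8.17 CPM, and B2m, the light chain, at 851, 1160, 521 and 297.

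Most receptors and upstream sensors moved little. Of 15 measured, 0 passed 2-fold in RM1 and 1 in RM1536, and the medians were -0.13 and -0.22. Just under the threshold were Mb21d1 in RM1 (15.3 and 7.41 CPM, log2 -0.9996) and Irf5. Irf5 had a log2 difference of 0.91 in RM1 and of -0.97 in RM1536, the latter from 18 and 4 reads. The receptor subunit Ifnar1 stood at 104, 80.8, 70.6 and 60.5 CPM and Ifnar2 at 24.4, 26.1, 18.3 and 15.3. Tlr3, a sensor of double-stranded RNA that is itself induced by interferon, was the member past 2-fold (5.61 and 2.07 CPM in RM1536). Reads of the ligand gene Ifnb1 numbered 5, 6, 1 and 0, and of Ifna4 1, 2, 0 and 0, at or near the limit of 3 reads that a count of 0 allows.

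**Figure D4:**
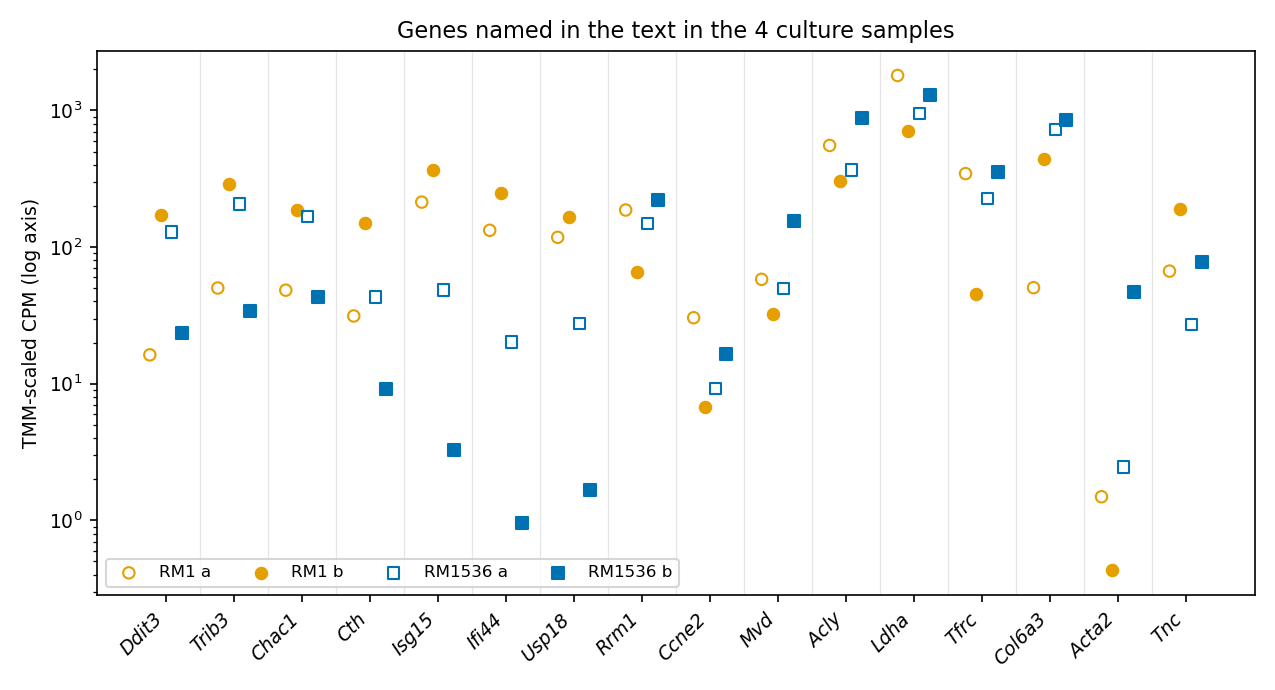
TMM-scaled CPM (log axis) of 16 genes named in the text in the 4 culture samples, with RM1 as circles and RM1536 as squares, a open and b filled. Ddit3, Trib3 and Chac1 are high in RM1 b and RM1536 a, Isg15, Ifi44 and Usp18 are lowest in RM1536 b, and Tnc is higher in b in both lines.

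Glycolysis genes were mostly lower in RM1 b, 14 of 17, and moved less in RM1536. Of the 17 glycolysis genes, 3 were at least 2-fold lower in RM1 b (median -0.54) and 0 passed 2-fold in RM1536 (median 0.11). Ldha (chr7:46841475-46855627, plus strand), lactate dehydrogenase A, stood at 1801 and 707 CPM in RM1 a and b and at 952 and 1305 in RM1536 a and b. Pfkl, a phosphofructokinase, stood at 336, 138, 217 and 279 CPM. RM1 a was highest and RM1 b lowest for both. Hypoxia genes split. Pdk1, a kinase that inhibits pyruvate dehydrogenase, stood at 91.0, 31.5, 65.9 and 65.5 CPM and the mitophagy gene Bnip3 at 73.1, 25.7, 47.4 and 31.0. Vegfa, the vascular growth factor, stood at 179, 355, 472 and 177 CPM and followed the ATF4 order. The list's medians were -0.23 and -0.24. All 9 measured mitochondrially encoded genes of the list were lower in RM1 b (2 past 2-fold, median -0.80). Among them mt-Co1, a cytochrome oxidase subunit, stood at 4306, 2295, 4235 and 4487 CPM. All entries with names that start with mt-, in the list or not, made 0.932% and 0.567% of the counts in RM1 a and b. In RM1536 a and b they made 1.296% and 1.2%. The 25 nuclear genes of the respiratory chain had medians of -0.09 and -0.02.

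Tfrc (chr16:32608920-32632794, plus strand), the transferrin receptor, showed the largest difference downward in RM1 b, at 345 and 45.5 CPM in RM1 a and b and at 226 and 352 in RM1536 a and b. RM1 b stood alone below the other 3 samples. The iron-storage subunit Fth1 did not share this, at 990 and 1054 CPM in the RM1 pair. Gdf15 (chr8:70629393-70632456, minus strand), a stress cytokine on the p53 list, stood at 1.89 and 44.6 CPM in the RM1 pair and at 0.205 and 0.132 in the RM1536 pair, so it was high in 1 of 4 samples although Ddit3 and Atf3 were high in 2. The 21 p53 targets had medians of 0.34 in RM1 and 0.28 in RM1536. Over all genes, 74 were past 2-fold in RM1 and under 1.25-fold in RM1536, and 112 the reverse.

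Matrix genes went both ways in RM1. Of 27 collagens and matrix genes, 5 were at least 2-fold higher and 5 lower in RM1 b, and 5 higher and 1 lower in RM1536 b. Col6a3 (chr1:90765923-90843971, minus strand), a collagen VI chain, stood at 50.4 and 443 CPM in RM1 a and b and at 723 and 858 in RM1536 a and b. Fbn1 (fibrillin 1) stood at 8.96, 41.9, 221 and 259 CPM and Fn1 (fibronectin) at 748, 1587, 2820 and 3028. For these 3 the RM1 samples differed, RM1 b lay nearer RM1536, and the RM1536 samples were level. Thbs1 (thrombospondin 1) moved the other way in RM1, at 704, 186, 942 and 1741 CPM.

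A second group was high in RM1536 b alone. The contractile list as a whole moved little: of 17 measured genes, 13 were lower in RM1 b (1 past 2-fold, median -0.16) and 13 higher in RM1536 b (2 past 2-fold, median 0.23). Acta2 (chr19:34241090-34255590, minus strand), smooth muscle actin, stood at 1.49 and 0.430 CPM in RM1 a and b and at 2.46 and 47.1 in RM1536 a and b. Col12a1 (chr9:79598991-79718831, minus strand), a fibril-associated collagen, stood at 1.49, 0.430, 10.4 and 147 CPM, and the growth factor receptor Pdgfrb at 3.58, 1.253, 5.08 and 60.6. The metalloprotease inhibitor Timp3 stood at 0.642, 0.179, 1.72 and 17.6 CPM, and the inducible chaperone Hspa1b at 34.8, 22.4, 16.4 and 161. In these 5 genes RM1536 b was at least 4-fold above each of the other samples. Hspa1b is on the heat shock list, whose 17 measured genes were all higher in RM1536 b (2 past 2-fold, median 0.46). In RM1 b 14 of the 17 were lower and 3 higher (0 past 2-fold, median -0.27). Fibroblast markers, of which 5 of the 10 were measured, did not all go together. In RM1536 b 3 were higher (2 past 2-fold) and 2 lower (1 past 2-fold). Pdgfrb, given above, is on this list and was higher past 2-fold, as was Col1a1 (9.01 and 28.3 CPM), whereas Dcn was lower (58.9 and 21.4). Thy1 had at most 1 read in a sample. In bulk RNA, a different number of cells of a type and a different level per cell cannot be told apart.

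The test that the design allows asks whether any gene differed between b and a the same way in both lines. With the line in the model, edgeR's quasi-likelihood test with Benjamini-Hochberg adjustment called 0 of 12964 genes (0%), with 1 residual degree of freedom. At an unadjusted p below 0.05 there were 81 by edgeR, 76 by DESeq2 and 91 by limma-voom, and the last 2 tools also called 0 after adjustment. These p-values measure only the spread between these samples. In this model differences in opposite directions count as residual spread, so 0 calls cannot show that no gene differed the same way. The 4 genes past 2-fold in the same direction in both pairs are given as values. The elastic fibre protein Fbln5 (chr12:101746565-101819055, minus strand) stood at 3.62 and 12.7 CPM in RM1 a and b and at 26.6 and 83.0 in RM1536 a and b. Tnc (chr4:63959785-64047015, minus strand), the matrix protein tenascin C, stood at 66.7, 191, 27.0 and 77.2 CPM, and the microtubule protein Map1a (chr2:121289600-121310832, plus strand) at 8.32, 27.9, 8.68 and 21.2. Angptl4 (chr17:33773750-33781830, minus strand), a secreted lipase inhibitor, was the 1 lower in b, at 82.7, 27.5, 29.8 and 8.396 CPM. Fbln5 had the smallest p together with Angptl4, with a log2 change of 1.73 (SE 0.29), an unadjusted p of 0.00122 and an adjusted p of 1 by edgeR.

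The spread between duplicates enters a comparison of the lines. RM1536 against RM1 gave 836 called genes of 12964 by edgeR (6.45%), 288 higher and 548 lower in RM1536. With the replicate letter as a block the count was 295, and without RM1536 b it was 136. Of the 836, 545 were measured in the sense used here, and 475 of these (87.2%) were past 2-fold within neither pair, a share near the 91.9% of all measured genes. Interferon-stimulated genes show both sides: 18 of 45 tested members were called, 17 of them lower in RM1536, while Isg15, with a log2 change of -3.51 (SE 1.14), had an adjusted p of 0.141 by edgeR. Of 20 tested MHC class I genes, 10 were called, all lower. Trib3, whose duplicates differed over 5-fold in each line, had a log2 change between lines of -0.52 (SE 1.03) and an adjusted p of 0.806 by edgeR. Lama5, a laminin chain that stood at 1077 and 419 CPM in the RM1 pair and 32.5 and 44.8 in the RM1536 pair, was called (log2 change -4.29, SE 0.51, edgeR adjusted p 0.0155).

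The samples of recovered cells, grown in culture after recovery, can be placed beside the RM1536 duplicates, with which both are compared. On the log2 scale the lung sample was nearer RM1536 a than RM1536 b for 128 of the 141 genes with opposite differences (90.8%), beside 70.0% of all measured genes. The femur sample was nearer RM1536 a for 72 of the 141 (51.1%), beside 59.3% of all. The 141 were picked for a gap between the RM1536 duplicates, so all genes past 2-fold in RM1536 are the closer comparison. Of those lower in RM1536 b, 80.1% were nearer RM1536 a in the lung sample and 48.7% in the femur sample. Of those higher in RM1536 b, 87.5% and 67.8% were. The high lung share was therefore not particular to the 141. With scaling over all 6 samples, the ATF4 list had a geometric mean of 80.5 and 241 CPM in the RM1 duplicates, 159 and 68.8 in the RM1536 duplicates, 89.0 in the femur sample and 222 in the lung sample. The cholesterol list stood at 118, 81.8, 91.8, 168, 97.6 and 47.3 in that order, and the S phase list at 68.4, 38.8, 65.9, 94.7, 54.9 and 29.7. Among the 6, RM1 b and lung were the 2 highest for ATF4 genes and the 2 lowest for both other lists, and RM1536 b was lowest for the first and highest for the other 2. The interferon-stimulated list stood at 109, 149, 29.0, 7.09, 5.70 and 11.6, so the recovered samples were nearer RM1536 b there, for 39 of 44 members in the femur sample, beside 4024 of all 9885 measured genes, and 32 of 44 in the lung sample, beside 2961 of 9885. Ddit3 stood at 44.0 CPM in the femur sample and 248 in the lung sample, and Car6 at 0.386 and 111.

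**Figure D5:**
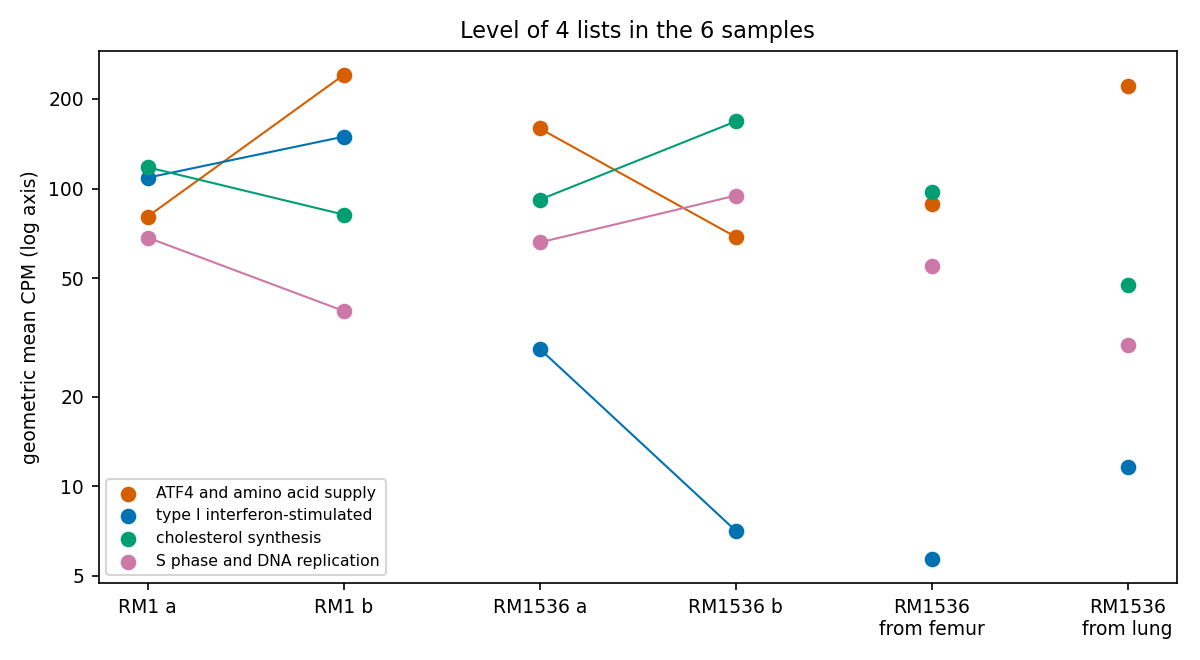
Geometric mean CPM (log axis) of 4 gene lists in the 6 samples, scaled over all 6, with lines joining duplicates of 1 line only. ATF4 genes are highest in RM1 b (241) and lung (222), where cholesterol and S phase genes are lowest, and interferon-stimulated genes are between 5.70 and 11.6 in RM1536 b, femur and lung.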

How the data were processed

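Messenger RNA was sequenced on a HiSeq2500 (NEBNext Ultra libraries), per the labels, which give an RNA integrity number (RIN) above 6.8. The authors deposited raw counts per gene for 6 samples; the submitters' processing notes list TopHat2 2.1.10, edgeR, HTSeq and the GRCm38 genome, with no roles. Strand and annotation: not given in the sources used here. An entry with a blank name (at most 0.00830% of the counts) was left out.

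Counts of the 4 culture samples were scaled by TMM (factors 0.979 to 1.01) in R 4.3.3 with edgeR 4.0.16. Within a pair, genes with a mean of at least 5 CPM were described by log2 differences with a pseudocount of 0.5 CPM, a 2-fold threshold and exact 95% counting intervals, which cover counting error only. The letter (with the line as covariate) and the line were tested with edgeR's quasi-likelihood test after filterByExpr, at a Benjamini-Hochberg adjusted p of 0.05; DESeq2 1.42.0 and limma 3.58.1 were alternatives. Scripts were tested on simulated data. Python 3.11.15 was used for the rest.

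Members and the 39 gene lists (854 entries, 18 not matched in the table) were chosen with earlier results of these data known. Named genes are, by rule, the 12 largest differences in each direction of a pair, up to 10 genes of each combination of directions past 2-fold in both pairs, the 4 most different members and the most abundant member of each list, and the 10 genes with the smallest p for the letter; 13 genes of RM1 and 15 of RM1536 past 2-fold have only predicted or clone names and are not named. Other list members given as examples, and the promoters printed, were chosen after their values were seen. Alternatives were other scaling, filters, pseudocounts, thresholds and models, and, added after seeing the data, crossed letters and a correction for transcript length and GC. Positions are from GENCODE M21 (GRCm38).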

Additional observations from a re-analysis of the deposited data

Results flagged for a closer look

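The differences between duplicates ran in opposite directions in RM1 and RM1536 for the following genes and lists, in 1 sample against 1 in each line, and the difference between the lines was not tested. The signs take the letters as the labels give them. Each value is the RM1536 difference (log2, b over a) minus the RM1 difference. Higher in RM1 b and lower in RM1536 b were Car6 (-7.70), Soat2 (-7.04), Fgf21 (-6.27), Ddit3 (-5.81), Atf3 (-5.75), Acot2 (-5.42), Stbd1 (-5.22), Trib3 (-5.10), Gadd45a (-4.56) and Glrp1 (-4.48). Lower in RM1 b and higher in RM1536 b were the ribosomal RNA entry Rn18s-rs5 (5.05), Cnnm1 (4.32), Fos (3.81), the imprinted gene Peg10 (3.71), Gas1 (3.57), the cadherins Pcdh18 (3.54) and Cdh26 (3.49), Fam217b (3.23), the Wnt antagonist Frzb (2.96) and Tenm4 (2.85). For list medians the value was -2.20 for ATF4 and amino acid supply, 1.32 for S phase and 1.40 for cholesterol synthesis.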

How the results depend on the processing

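Counts past 2-fold moved with the filter and the fold. For RM1 (446) they were 281 at a mean of at least 20 CPM, 718 with no filter, 1580 at 1.5-fold and 119 at 3-fold; for RM1536 (499) they were 303, 773, 1908 and 176. Genes opposite in both pairs (141) numbered 87 at 20 CPM, 673 at 1.5-fold and 35 at 3-fold. Other scalings, pseudocounts, interval rules and the length and GC correction kept these 3 counts within 1.5 times. Of 430 recomputed list medians 405 stayed within the spread used and 25 moved. In 11 the sign changed, none with a median past 0.42 in size: with the length and GC correction in RM1536, mitochondrially encoded genes went from -0.26 to 0.14, collagens and matrix from 0.27 to -0.02, nuclear respiratory chain from -0.02 to 0.16 and nuclear noncoding RNAs from -0.19 to 0.04; at 20 CPM, Wnt genes in RM1 went from 0.42 to -0.37 and circadian genes in RM1536 from -0.38 to 0.07. The other 5 had medians under 0.1 in size. Of 382 recomputed values of named genes, 9 (Usp17la in RM1536, and Acta2, Col12a1, Pdgfrb, Efhd1, Frzb and Slc5a3 in RM1) no longer passed 2-fold, 7 with a pseudocount of 2 CPM and 2 with other scaling. The lines' comparison (836) gave 295 with the replicate block, 2296 with no filter on low counts, 360 at a mean of at least 5 CPM, 1742 with DESeq2, and 136 to 709 leaving out 1 sample (136 without RM1536 b, 452 without RM1536 a; the lone sample is then assumed to vary like the other line). Nothing in the labels says that a letter ties samples across the lines; since the deviations ran against each other (r -0.516 across genes), a crossed pairing was added after seeing the data and gave 630 calls for the crossed letter and 3165 for the lines with the crossed letters as a block. The crossing was chosen from that r on the same values, so these counts restate it and are no evidence of a pairing. The causes of these shifts were not tested. Leaving out a sample was not possible within a pair or for the letter, which has 1 residual degree of freedom. Depth of 24291590 to 30303566 counts limits only the lowest genes.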
